A study of Mus musculus with 15 samples.

Results

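The genes of the Wnt pathway were followed across cultured mouse brain tumour cells and untransformed neural cells, each sorted into a dye-excluding fraction and the remaining cells. Members were taken from the array by gene symbol: every Wnt, Fzd, Sfrp and Dkk gene with a number, with Lrp5, Lrp6, Axin1, Axin2, Lef1, Tcf7, Tcf7l1, Tcf7l2, Ctnnb1, Apc, Nkd1, Nkd2, Rnf43, Znrf3 and Notum. The rule found 51 genes on 107 probe sets, of 18193 genes on an array of 45101 probe sets; Tcf7 was not matched and is not analysed here. They were 19 Wnt ligands, 10 Frizzled receptors, the 2 coreceptors Lrp5 and Lrp6, 9 secreted inhibitors, the 2 destruction complex scaffolds Axin1 and Apc, 5 feedback inhibitors, beta-catenin and 3 factors of the TCF/LEF family. For 33 of them the array holds several probe sets, and the one with the highest mean over all arrays stands for the gene.

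Wnt proteins are secreted lipid-modified ligands that bind Frizzled receptors together with the coreceptors Lrp5 and Lrp6. Without a ligand, a complex built on Axin and Apc marks beta-catenin for degradation, and with a ligand beta-catenin builds up, enters the nucleus and acts through TCF/LEF factors on genes that include the pathway's own inhibitors. Wnt5a and some other ligands also act without beta-catenin, through the planar polarity branch and the receptors Ror2 and Ryk. In the brain the pathway is known for patterning the neural tube, for balancing division against differentiation in neural stem cells and for forming the blood-brain barrier.

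RNA was measured on 15 arrays in 5 groups of 3. The tumour groups came from tumorspheres, floating cultures grown from brain tumours of S100beta-verbB mice, in which the verbB oncogene is driven by the S100beta promoter, on a p53-/- or p53+/- background; the sources used here do not say which of these each line carries. Each of the lines 3447 and 4346 was injected intracranially, with recipients of strain NOD.Cg-Prkdc<scid>Il2rg<tm1Wjl>/SzJ, which lack lymphocytes, and spheres were grown again from 3 recipients, so the 3 arrays of a line are 3 hosts of 1 tumour culture. The controls were untransformed neurospheres, cultures of neural stem and progenitor cells from mice of the same S100beta-verbB and p53 genotypes, so every group carried the transgene and came from p53-/- or p53+/- mice. One passage of the study's description takes the neurospheres from 3 independent mice and another from 3 injected mice, and ages are not given. Cells were sorted by flow cytometry into the side population (SP), which keeps little DNA dye because transporters pump it out, and the non-SP. Both gates were measured in line 3447 and in the neurospheres, and only the SP in line 4346.

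Signals below are quoted as deposited, on the linear scale of the MAS5 method, in the order of arrays 1, 2 and 3 of a group. Fold changes are log2 differences ± SE from limma, fitted to all 15 arrays after quantile normalization and an added constant of 16, which understates the change of a low signal. A gene passed when its p-value, adjusted by Benjamini-Hochberg over the 11893 genes tested, was under 0.05. Array medians ran from 40.0 to 89.3, highest on array 3 of the 3447 SP. Array 3 of the 4346 SP had an actin 3'/5' ratio, a sign of RNA quality, of 5.30 against 2.49 to 3.29 on the other arrays. All 7 neural stem and progenitor markers exceeded the array median on every neurosphere array; Prom1 did so on no SP array of either tumour line and Sox1 on no 4346 array. Of 7 microglial and other immune markers, none exceeded the array median in any group. Because RNA was pooled over sorted cells, fewer cells of a type and less RNA per cell cannot be told apart, and p-values measure only the spread between these arrays.

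Of the 51 members, 30 exceeded the median of their own array on at least 3 arrays and were tested. The 21 others were 14 Wnt ligands (Wnt1, Wnt2, Wnt2b, Wnt3, Wnt4, Wnt6, Wnt8a, Wnt8b, Wnt9a, Wnt9b, Wnt10a, Wnt10b, Wnt11 and Wnt16), the receptor Fzd10, the secreted inhibitors Dkk1, Dkk2, Dkk4, Sfrp5 and Notum, and Rnf43. Of these 21, 14 exceeded the median on no array and 7 on 1 array. Their highest signal was 111, for Wnt6 on array 3 of the 4346 SP, and 9 of the 21 peaked on array 3 of the 3447 SP, the array with the highest median. No other probe set of these genes met the filter. The tested part of the pathway thus held 5 ligands, 9 receptors, both coreceptors, 4 secreted inhibitors, both scaffolds, 4 feedback inhibitors, beta-catenin and 3 TCF/LEF factors.

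Tumour cells differed from neurospheres in many members, whereas the SP gate moved none past the threshold. Against the neurosphere SP, the 3447 SP had 13 of 30 tested members past the threshold (6 higher, 7 lower), 43.3% where all genes gave 19.6% (10.7% higher, 8.92% lower). The 4346 SP had 15 of 30 (6 higher, 9 lower), 50% against 24.3% (14% higher, 10.3% lower). In the non-SP, line 3447 had 13 of 30 (6 higher, 7 lower), 43.3% against 19.4% (11.2% higher, 8.2% lower). The middle size of the change without its sign was 1.08, 1.04 and 0.99 on the log2 scale among the tested members and 0.40, 0.45 and 0.39 among all genes. Both SP comparisons use the same 3 neurosphere SP arrays, and the non-SP comparison shares no array with them. A member enters the test through the arrays where it is high, so these shares describe the tested members and not all 51. Leaving out array 3 of the 3447 SP lowered its count from 13 to 8, and leaving out array 2 of the neurosphere non-SP lowered the non-SP count from 13 to 8.

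**Figure D1:**
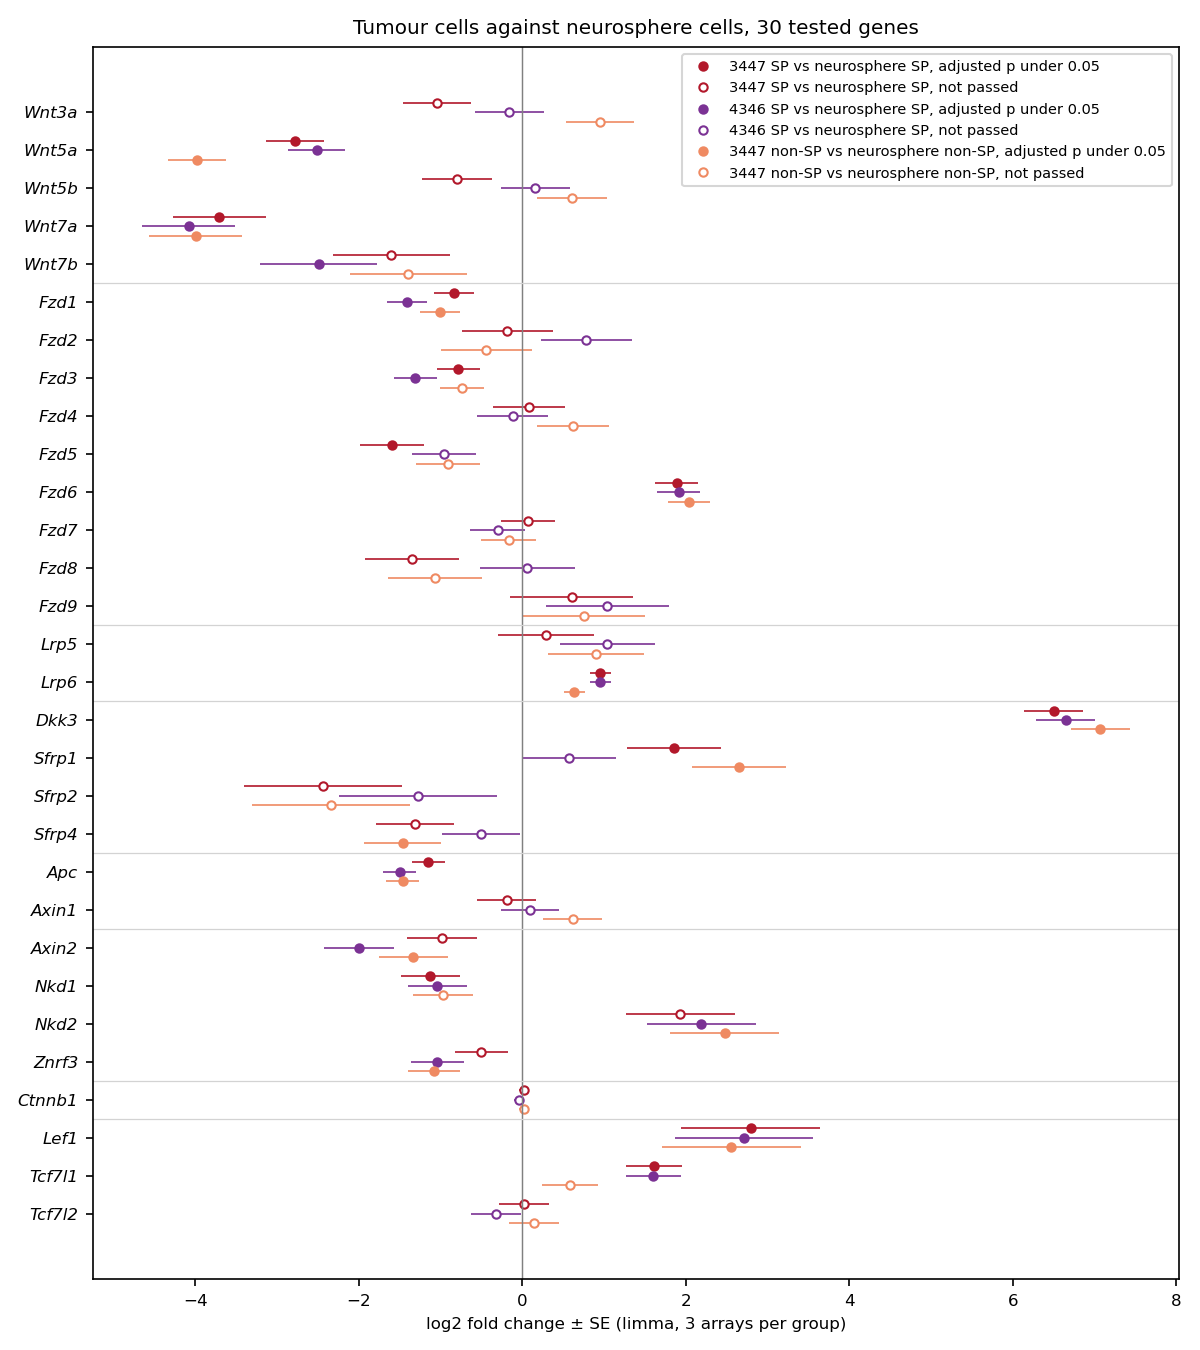
Log2 fold change ± SE (x axis, limma, 3 arrays per group) of the 30 tested members (y axis, grouped by role) in the 3447 SP and 4346 SP against the neurosphere SP and in the 3447 non-SP against the neurosphere non-SP; filled points passed the adjusted threshold of 0.05. Dkk3 lies far to the right at 6.50, 6.65 and 7.07, Wnt7a and Wnt5a lie at the left, and Ctnnb1 lies on 0.

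Of the 5 tested ligands, 3 were lower in tumour cells in at least 1 comparison. Wnt5a, the ligand best known for signalling without beta-catenin, and Wnt7a, which acts through beta-catenin on brain endothelium and neural progenitors, were lower in all 3 comparisons, and Wnt7b, the close relative of Wnt7a, was lower in the 4346 SP. None of the 5 was higher in these tests. The signals of Wnt5a were 2224, 2735 and 1101 in the neurosphere SP and 2030.2, 1615 and 1464 in the neurosphere non-SP. They were 260.0, 381 and 224 in the 3447 SP, 213, 307 and 463 in the 4346 SP and 51.7, 125 and 94.7 in the 3447 non-SP. All 9 tumour arrays lay below all 6 neurosphere arrays, and the 3447 non-SP was the lowest group. Wnt5a changed by -2.78 in the 3447 SP (adjusted p = 3.83e-05), by -2.52 in the 4346 SP (adjusted p = 9.13e-05) and by -3.97 in the 3447 non-SP (adjusted p = 7.87e-07), each with an SE of 0.35. Its 3 further probe sets were lower in each comparison too, with changes of -3.58 to -0.22.

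Wnt7a gave 121, 718 and 287 in the neurosphere SP and 336, 977 and 365 in the neurosphere non-SP, array 2 being highest in both. The tumour arrays gave 27.9, 2.35 and 10.4 in the 3447 SP, 2.45, 1.94 and 1.56 in the 4346 SP and 16.5, 1.68 and 22.5 in the 3447 non-SP. Every tumour signal was below the median of its array. The log2 changes were -3.70 ± 0.57 (adjusted p = 0.000212), -4.08 ± 0.57 (adjusted p = 8.51e-05) and -3.99 ± 0.57 (adjusted p = 0.000105). Because the tumour signals are near the bottom of the scale, the size depends on the added constant: with 1 in place of 16 the changes were -5.22, -6.24 and -5.27, and with 64 they were -2.37, -2.50 and -2.79. Wnt7b gave 235, 224 and 16.5 in the neurosphere SP and 7.44, 2.91 and 2.04 in the 4346 SP, a change of -2.49 ± 0.71 (adjusted p = 0.0188). The groups did not overlap, but array 3 of the neurosphere SP stood low at 16.5. Its call was lost without array 3 of the 4346 SP or without array 1 or 2 of the neurosphere SP, with an adjusted p of up to 0.0927. In the 3447 SP, Wnt7b at 8.23, 20.6 and 86.2 overlapped the neurospheres (-1.60 ± 0.71, adjusted p = 0.132), and without array 3 of the neurosphere SP it passed (adjusted p = 0.00433). Wnt3a, with a highest signal of 60.7, and Wnt5b, with a highest signal of 174, did not pass in any of the 3 comparisons.

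**Figure D2:**
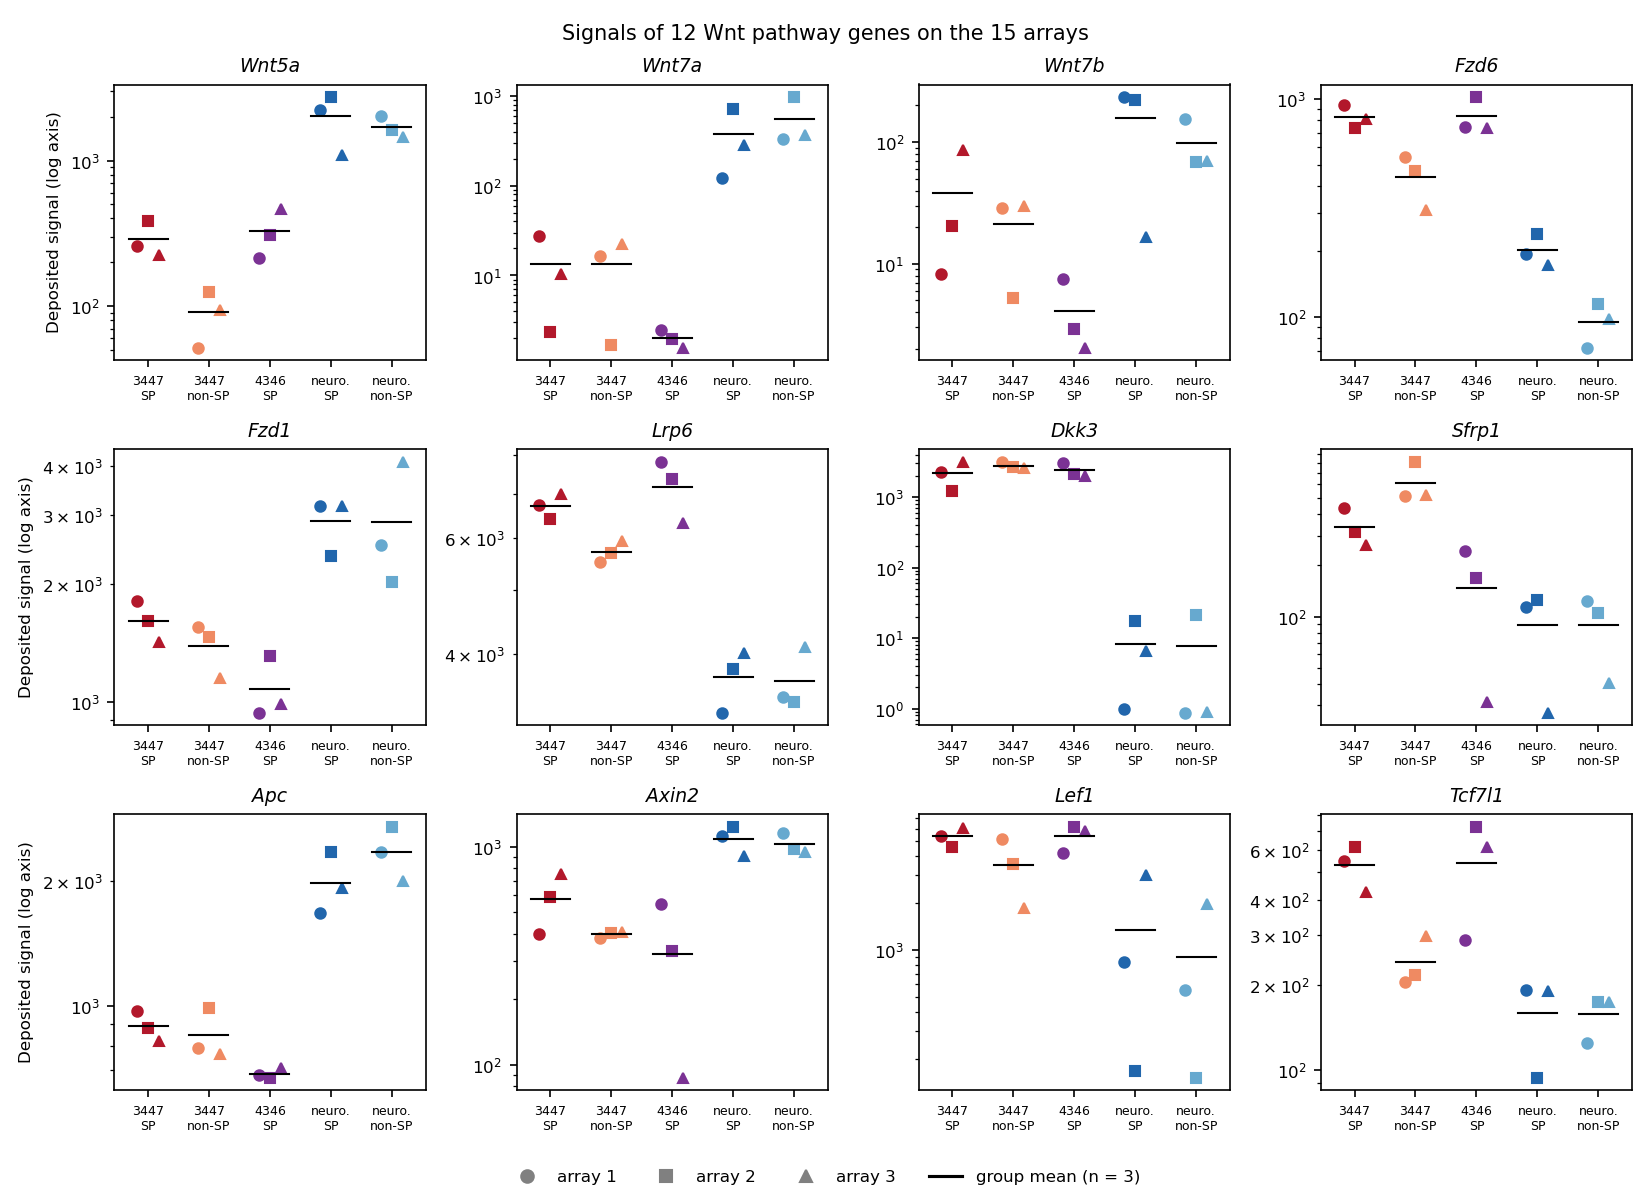
Deposited signals (y axis, log scale) on each of the 15 arrays, by group (x axis), with a line at each group mean (n = 3). The members shown are Wnt5a, Wnt7a, Wnt7b, Fzd6, Fzd1, Lrp6, Dkk3, Sfrp1, Apc, Axin2, Lef1 and Tcf7l1. Marker shapes give array 1, 2 and 3. Dkk3 and Fzd6 are higher and Wnt5a, Wnt7a and Apc are lower on every tumour array than on every neurosphere array, and array 3 of the 4346 SP stands low for Axin2 at 86.9.

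The promoters of Wnt7a, Lef1 and Axin2 are printed here because the first holds the ligand with the largest decrease, and the others are a TCF/LEF factor and a widely used target of the pathway that moved in opposite directions. Each line gives the 250 bases before the most upstream listed start, 5′ to 3′ on the gene's strand, from RefSeq on GRCm38.p6: Wnt7a at chr6:91411354-91411603 on the minus strand, Lef1 at chr3:131110047-131110296 on the plus strand and Axin2 at chr11:108920099-108920348 on the plus strand. Capitals mark CTTTG, the core of the TCF/LEF motif, or its complement CAAAG.
Wnt7a: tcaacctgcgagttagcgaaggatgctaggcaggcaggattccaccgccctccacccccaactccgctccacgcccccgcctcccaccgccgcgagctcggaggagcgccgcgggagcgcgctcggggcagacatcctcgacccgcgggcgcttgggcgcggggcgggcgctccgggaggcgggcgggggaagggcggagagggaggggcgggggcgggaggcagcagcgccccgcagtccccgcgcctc
Lef1: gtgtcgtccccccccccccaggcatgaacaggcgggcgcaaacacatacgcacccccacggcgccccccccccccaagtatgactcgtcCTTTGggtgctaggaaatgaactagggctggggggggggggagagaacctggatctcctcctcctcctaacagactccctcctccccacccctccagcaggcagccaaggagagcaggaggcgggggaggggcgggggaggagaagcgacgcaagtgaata
Axin2: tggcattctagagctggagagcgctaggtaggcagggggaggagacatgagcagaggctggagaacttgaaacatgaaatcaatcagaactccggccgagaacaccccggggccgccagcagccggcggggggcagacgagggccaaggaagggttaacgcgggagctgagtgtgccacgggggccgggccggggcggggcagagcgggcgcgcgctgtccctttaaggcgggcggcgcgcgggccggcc
All 3 windows were rich in G and C, at 77.6%, 66.4% and 69.2% where the median of all 32851 windows was 52.4%. The core was found 1 time in the Lef1 window and not in the others, and 48.6% of all windows hold it. The longer motifs CTTTGAT and CTTTGAA, each of which contains the core, were searched on both strands and were in none of these 3 windows and in 7.48% of all windows. Of the 30 tested members, 16 matched the table, with 23 windows; 11 of these held the core and 1, of Wnt5b, held a longer motif.

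Among the Frizzled receptors, Fzd6 was higher in the tumour cells of both lines, and Fzd1 was lower. Fzd3 was lower in both SP comparisons, Fzd5 was lower in the 3447 SP, and Fzd2, Fzd4, Fzd7, Fzd8 and Fzd9 did not pass in any of the 3 comparisons. Fzd6, a receptor known from planar polarity of hair and skin, gave 195, 240.4 and 173 in the neurosphere SP and 72.3, 114 and 98.5 in the neurosphere non-SP. It gave 939, 737 and 806 in the 3447 SP, 740.3, 1021 and 736 in the 4346 SP and 542, 469.8 and 311 in the 3447 non-SP. The lowest tumour array lay above the highest neurosphere array. Fzd6 rose by 1.89 ± 0.26 in the 3447 SP (adjusted p = 7.71e-05), by 1.91 ± 0.26 in the 4346 SP (adjusted p = 6.62e-05) and by 2.04 ± 0.26 in the 3447 non-SP (adjusted p = 3.63e-05), or 3.71, 3.77 and 4.11 times on this scale.

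Fzd1 gave 3158, 2356 and 3159 in the neurosphere SP and 2516, 2024 and 4086 in the neurosphere non-SP. It gave 1808, 1602 and 1419 in the 3447 SP, 937, 1307 and 988 in the 4346 SP and 1548, 1458 and 1149 in the 3447 non-SP. No tumour array reached a neurosphere array. The decrease of Fzd1 was largest in the 4346 SP (-1.41 ± 0.24, adjusted p = 0.000549). In the non-SP it was -1.002 ± 0.24 (adjusted p = 0.00799) and in the 3447 SP -0.83 ± 0.24 (adjusted p = 0.0243). The 3447 SP call was lost without array 2 or 3 of the 3447 SP or array 1 or 3 of the neurosphere SP (adjusted p up to 0.0862), and median centring of the arrays removed both 3447 calls (adjusted p = 0.0562 and 0.131). Fzd3, a receptor needed for axon growth in the brain, gave 958, 875 and 801 in the neurosphere SP, 298, 288 and 475 in the 4346 SP and 532, 646 and 422 in the 3447 SP. It changed by -1.30 in the 4346 SP (adjusted p = 0.00193) and by -0.78 in the 3447 SP (adjusted p = 0.0481). All 6 of its probe sets were lower in each of the 3 comparisons, but the 3447 SP call held in only 5 of 15 fits that each left out 1 array (adjusted p up to 0.175). In the non-SP the change of Fzd3 was -0.73 ± 0.26 (adjusted p = 0.0632), and it passed without array 3 of the 4346 SP (adjusted p = 0.0355).

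Fzd5 gave 189, 274 and 385 in the neurosphere SP and 158, 75.2 and 82.0 in the 3447 SP, groups that did not overlap, and fell by 1.59 (adjusted p = 0.00883). In the 4346 SP it gave 145, 169 and 84.8, also below the neurosphere SP, without passing (-0.96 ± 0.39, adjusted p = 0.0877). Tumour and neurosphere arrays overlapped in each of the 3 comparisons for Fzd2, with signals of 626 to 4447, and for Fzd7, with signals of 1079 to 2915. Of the coreceptors, Lrp6 was higher in tumour cells. Its signals were 3252, 3787 and 4012 in the neurosphere SP and 3436, 3383 and 4099 in the neurosphere non-SP. They were 6722, 6402 and 6982 in the 3447 SP, 7817, 7361 and 6325 in the 4346 SP and 5518, 5683 and 5929.9 in the 3447 non-SP. The 2 sides did not overlap, and the spread within each group was small. Lrp6 rose by 0.95 ± 0.13 (adjusted p = 6.04e-05), 0.95 ± 0.13 (adjusted p = 5.72e-05) and 0.64 ± 0.13 (adjusted p = 0.002). Its other probe set changed by -0.21, 0.78 and 0.41, and with the mean of both the 3447 SP and non-SP calls were lost (adjusted p = 0.357 and 0.184); median centring of the arrays also removed the 3447 SP call (adjusted p = 0.109). Lrp5, with a highest signal of 90.6, did not pass.

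The largest change of the whole set was an increase in a secreted inhibitor. Dkk3, a Dickkopf family member whose effect on Wnt signalling is less clear than that of Dkk1, gave 0.997, 17.3 and 6.48 in the neurosphere SP and 0.873, 21.1 and 0.909 in the neurosphere non-SP, all below the array median. It gave 2294, 1225 and 3142 in the 3447 SP, 3062, 2129 and 1959 in the 4346 SP and 3129.5, 2654 and 2553 in the 3447 non-SP. The lowest tumour array thus gave 1225 and the highest neurosphere array 21.1. The log2 changes were 6.50 ± 0.36 (adjusted p = 5.18e-09), 6.65 ± 0.36 (adjusted p = 2.64e-09) and 7.07 ± 0.36 (adjusted p = 2.00e-09). With an added constant of 1 they were 8.33, 8.49 and 9.43, and with 64 they were 4.91, 5.05 and 5.35. The other probe set of Dkk3 rose by 4.18, 4.43 and 5.30. The other Dickkopf genes were not tested, and their highest signals were 74.7 for Dkk1, 11.3 for Dkk2 and 24.7 for Dkk4.

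Sfrp1, which binds Wnt ligands outside the cell, was higher in line 3447 in both gates. It gave 114, 125 and 27.2 in the neurosphere SP and 437, 316 and 263 in the 3447 SP, a change of 1.85 ± 0.58 (adjusted p = 0.0325). In the non-SP it gave 123, 105 and 40.9 in neurospheres and 512, 813 and 521 in line 3447, a change of 2.65 ± 0.58 (adjusted p = 0.00381). The groups did not overlap in either gate. In the 4346 SP, Sfrp1 at 243, 169.7 and 31.6 overlapped the neurosphere SP (0.57 ± 0.58, adjusted p = 0.509), and the direct comparison of the lines did not pass (1.28 ± 0.58, adjusted p = 0.276). The 3447 SP call was lost without any 1 of its own 3 arrays or without array 3 of the neurosphere SP (adjusted p up to 0.151). Sfrp4, of the same family, was lower in the 3447 non-SP, with 33.5, 43.3 and 20.7 against 73.3, 304 and 90.2 (-1.46 ± 0.47, adjusted p = 0.0399); the call was lost without any 1 of the 3447 non-SP arrays or array 2 of the neurosphere non-SP (adjusted p up to 0.196), and without the last the change was -0.95. Sfrp2 varied within groups, from 122 to 1188 in the neurosphere SP and from 33.2 to 819 in the 4346 SP. In the non-SP, line 3447 lay below the neurospheres for Sfrp2. In the SP the deposited signals overlapped, with array 3 of the 3447 SP at 149 and array 1 of the neurosphere SP at 122. The changes of Sfrp2 were -2.44 ± 0.96 in the 3447 SP (adjusted p = 0.0897) and -2.34 ± 0.96 in the 3447 non-SP (adjusted p = 0.105). Neither passed.

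In the destruction complex, Apc, the scaffold whose loss activates the pathway in intestinal tumours, was lower in tumour cells, and Axin1 did not pass in any comparison. Apc gave 1670.1, 2345 and 1920.4 in the neurosphere SP and 2349, 2702 and 2003 in the neurosphere non-SP. It gave 970.0, 884 and 819.9 in the 3447 SP, 680.4, 669 and 706 in the 4346 SP and 792, 989 and 765 in the 3447 non-SP. The highest tumour array gave 989 and the lowest neurosphere array 1670.1. Apc changed by -1.15 in the 3447 SP (adjusted p = 0.000728), by -1.497 in the 4346 SP (adjusted p = 6.36e-05) and by -1.46 in the 3447 non-SP (adjusted p = 8.20e-05), each with an SE of 0.20. All 4 probe sets of Apc were lower in each comparison, with changes of -1.60 to -0.57.

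The feedback inhibitors, genes that the pathway itself is known to induce and that then restrain it, moved in both directions. Axin2, the scaffold most often read as a sign of beta-catenin activity, gave 1128, 1234 and 910.2 in the neurosphere SP and 1154, 979.6 and 948 in the neurosphere non-SP. It gave 397, 588 and 753 in the 3447 SP, 546, 333 and 86.9 in the 4346 SP and 381, 403 and 408 in the 3447 non-SP. All tumour arrays lay below all neurosphere arrays, and array 3 of the 4346 SP, the one with the high actin ratio, was the lowest. The change was -1.99 ± 0.43 in the 4346 SP (adjusted p = 0.00301), and without that array it was -1.32 (adjusted p = 0.0044). In the 3447 non-SP it was -1.33 ± 0.43 (adjusted p = 0.0383), a call lost without any 1 of the 6 arrays compared (adjusted p up to 0.108). In the 3447 SP it was -0.98 ± 0.43 and did not pass (adjusted p = 0.124); without array 3 of the 4346 SP, which only enters the shared estimate of spread there, it passed (adjusted p = 0.012).

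Nkd2, which binds Dishevelled and dampens the signal, was higher in the tumour cells. It gave 1.53, 32.4 and 89.6 in the neurosphere SP and 3.98, 2.70 and 108 in the neurosphere non-SP, with array 3 highest in both gates. It gave 174, 117 and 222 in the 3447 SP, 225, 128 and 206 in the 4346 SP and 191, 231 and 151 in the 3447 non-SP. Tumour and neurosphere arrays did not overlap. Nkd2 rose in the 4346 SP (2.19 ± 0.67, adjusted p = 0.0251) and in the 3447 non-SP (2.48 ± 0.67, adjusted p = 0.0148), whereas the 3447 SP change of 1.93 ± 0.67 did not pass (adjusted p = 0.0522). The 4346 SP call was lost without array 1 or 3 of the 4346 SP or array 1 or 2 of the neurosphere SP (adjusted p up to 0.121). The non-SP call was lost without array 2 of the 3447 non-SP or array 1 or 2 of the neurosphere non-SP (adjusted p up to 0.073). The 3447 SP change passed without array 3 of the neurosphere SP (adjusted p = 0.0176) and without array 2 or 3 of the neurosphere non-SP (adjusted p = 0.0421 and 0.0102).

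Nkd1, of the same family, was lower in both SP comparisons by the probe set with the highest mean (-1.12 ± 0.36, adjusted p = 0.0405, and -1.04 ± 0.36, adjusted p = 0.0493). Its other probe sets above the filter changed by 0.07 to 0.46 there, in the opposite direction, and the calls held in 8 and 4 of 15 fits that each left out 1 array (adjusted p up to 0.181 and 0.142). Znrf3, a ubiquitin ligase that removes Frizzled from the cell surface, gave 1323, 1967 and 2011 in the neurosphere SP and 1123, 1094 and 495 in the 4346 SP. It fell by 1.04 there (adjusted p = 0.0275) and, without array 3 of the 4346 SP, the change was -0.66 and did not pass (adjusted p = 0.125); the call was also lost without array 2 or 3 of the neurosphere SP. In the non-SP, Znrf3 gave 1378, 2305 and 2493 in neurospheres and 981, 1196 and 719 in line 3447 and fell by 1.08 (adjusted p = 0.0262); averaging its probe sets gave a change of -0.58 (adjusted p = 0.202). That call was lost without array 1 or 3 of the 3447 non-SP or array 2 or 3 of the neurosphere non-SP (adjusted p up to 0.123).

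By the probe set with the highest mean, the mRNA of Ctnnb1, which codes for beta-catenin, varied little across the 5 groups. The protein, which the pathway controls by degradation, was not measured. The signals of that probe set ran from 12461 to 15692 over the 15 arrays. The changes were 0.02 ± 0.06, -0.03 ± 0.06 and 0.02 ± 0.06 in the 3 comparisons with neurospheres (adjusted p = 0.861, 0.725 and 0.843). The other 2 probe sets of Ctnnb1 changed by -0.09 to 0.74.

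Among the TCF/LEF factors, Lef1 and Tcf7l1 were higher in tumour SP cells and Tcf7l2 did not pass. Lef1, an activating partner of beta-catenin, gave 829, 166 and 3028 in the neurosphere SP and 555, 151 and 1981 in the neurosphere non-SP. It gave 5378, 4581 and 6077 in the 3447 SP, 4149, 6135 and 5797 in the 4346 SP and 5157, 3529 and 1848 in the 3447 non-SP. The neurosphere arrays spread widely, with array 3 highest and array 2 lowest in both gates, and in the non-SP array 3 of each side overlapped. Lef1 rose by 2.80 ± 0.85 in the 3447 SP (adjusted p = 0.0289), by 2.71 ± 0.85 in the 4346 SP (adjusted p = 0.0288) and by 2.56 ± 0.85 in the 3447 non-SP (adjusted p = 0.0446). Without array 2 of the neurosphere SP the SP changes were 1.75 and 1.67 and did not pass (adjusted p = 0.138 and 0.147). The 3447 SP call was also lost without any 1 of its own arrays or array 1 of the neurosphere SP, and the 4346 SP call without array 2 or 3 of the 4346 SP or array 1 of the neurosphere SP. The non-SP call held in 3 of 15 fits that each left out 1 array, and without array 2 of the neurosphere non-SP the change was 1.60 (adjusted p = 0.211).

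Tcf7l1, mainly a repressor that is known from stem cells, gave 192, 93.9 and 190.4 in the neurosphere SP, 547, 616 and 425 in the 3447 SP and 289, 723 and 613 in the 4346 SP. Both tumour SP groups lay above the neurosphere SP. It rose by 1.61 ± 0.34 (adjusted p = 0.00306) and 1.61 ± 0.34 (adjusted p = 0.0027). In the non-SP it gave 125, 174 and 174 in neurospheres and 205, 217 and 298 in line 3447, without overlap, and did not pass (0.59 ± 0.34, adjusted p = 0.26). Tcf7l2, a factor of oligodendrocyte maturation as well, gave 2092, 2558 and 4488 in the neurosphere SP and 2135, 1777 and 4494 in the neurosphere non-SP. It gave 2932, 2857 and 2909 in the 3447 SP, 2103, 2724 and 2181 in the 4346 SP and 3279.9, 3101 and 2326 in the 3447 non-SP. Tumour and neurosphere arrays overlapped for Tcf7l2, and the changes were 0.02, -0.32 and 0.15 (adjusted p = 0.975, 0.481 and 0.795).

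Neurosphere arrays of the same replicate number deviated together across the SP and non-SP gates, and a fit with that number as a block within the neurospheres moved some calls. It takes the spread between neurosphere cultures out of the error of a comparison with tumour cells, which share no culture with them. Under that block Nkd2 (adjusted p = 0.0013), Sfrp2 (adjusted p = 0.0239) and Sfrp4 (adjusted p = 0.0353) passed in the 3447 SP and Fzd9 (adjusted p = 0.0429) passed in the 4346 SP. In the 3447 non-SP, Sfrp2 (adjusted p = 0.0298) and Fzd3 (adjusted p = 0.0443) passed. The directions were those given above, and Fzd9 was higher in the 4346 SP.

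Some members differed more between neurosphere cultures than between gates. With each culture set against the mean of the other 2 in its gate, on the log2 scale, 4 of 30 members differed by more than 1 in the same direction in both gates for each number (13.3%), where 2.98%, 3.30% and 4.90% of all genes did for numbers 1, 2 and 3. In number 3, Lef1 was higher (2.94 in the SP and 2.77 in the non-SP), as were Fzd9 (2.06 and 3.45), Nkd2 (1.81 and 2.80) and Fzd4 (1.39 and 1.34). Number 2 was lower in Lef1 (-3.13 and -2.87) and in Fzd9 and higher in Sfrp2 (2.37 and 2.85) and Wnt7a (1.84 and 1.44). Number 1 was lower in Sfrp2, Nkd2 and Fzd2 and higher in Wnt7b. These are descriptions of single cultures, with no test.

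**Figure D3:**
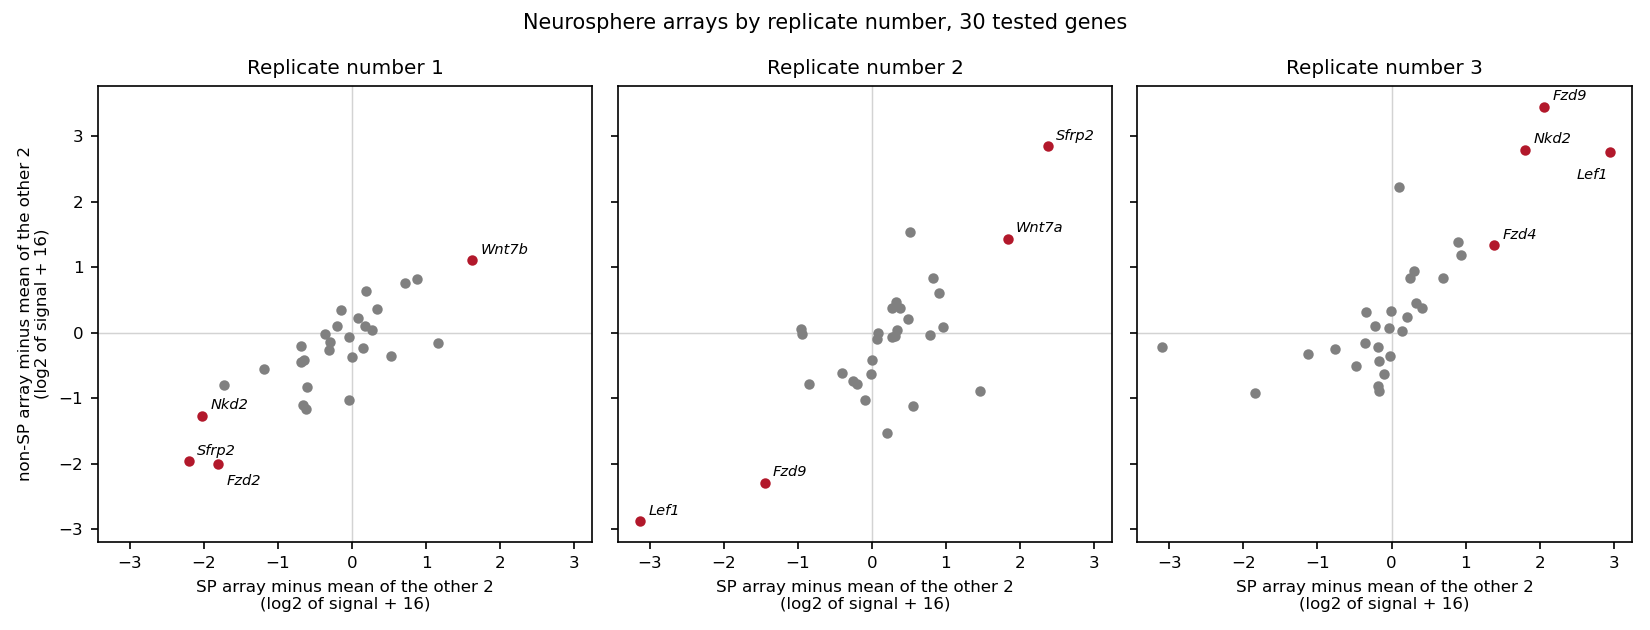
For each neurosphere replicate number, the log2 difference of its SP array (x axis) and of its non-SP array (y axis) from the mean of the other 2 arrays of that gate, for the 30 tested members; red points differ by more than 1 in the same direction in both gates. Lef1 lies at the lower left for number 2 and at the upper right for number 3.

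Within each origin, no member passed between SP and non-SP. In line 3447, 0 of 30 passed where 0.00841% of all genes did, and 7 of 30 had an unadjusted limma p under 0.05, 23.3% against 7.21% of all genes. In neurospheres 0 of 30 passed against 0.0168% of all genes, and 1 of 30 had an unadjusted p under 0.05, 3.33% against 3.6%. The arrays of the gates did not overlap for 7 of 30 members in line 3447 (23.3%, against 17.5% of all genes) and for 2 of 30 in neurospheres (6.67%, against 7.58%). In line 3447 the smallest p belonged to Wnt5a, with 260.0, 381 and 224 in the SP and 51.7, 125 and 94.7 in the non-SP. Its SP arrays all lay above its non-SP arrays, by 1.37 ± 0.35 (unadjusted p = 0.00133, adjusted p = 0.273), and with array quality weights the difference passed (1.44, adjusted p = 0.0459). It did not pass under the 12 other settings or with any array left out, and averaging its probe sets gave 0.60. In neurospheres the Wnt5a difference was 0.18 ± 0.35 (adjusted p = 1).

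Fzd6 had the next smallest p in line 3447 and the smallest in neurospheres, and its SP arrays lay above its non-SP arrays in both origins. The difference was 0.91 ± 0.26 in line 3447 (adjusted p = 0.351) and 1.06 ± 0.26 in neurospheres (adjusted p = 0.609), where the replicate block gave an adjusted p of 0.225. Wnt3a was the third in line 3447, with 3.95, 20.3 and 11.5 in the SP and 47.0, 60.7 and 33.9 in the non-SP (-1.41 ± 0.42, adjusted p = 0.391). In neurospheres Fzd7 (0.50 ± 0.33) and Fzd5 (0.62 ± 0.39) followed, both with an adjusted p of 1. Without array 2 of the neurosphere non-SP these were 0.15 and 0.41, without array 3 of the neurosphere non-SP Fzd7 was 0.81, and without array 3 of the neurosphere SP Fzd5 was 0.38. For Tcf7l1 the SP arrays of line 3447 lay above the non-SP arrays by 1.05 ± 0.34 (adjusted p = 0.478), and in neurospheres the difference was 0.02 ± 0.34 (adjusted p = 1). Axin2 and Lef1 overlapped between the gates in both origins. Within each neurosphere replicate number, Lef1 was higher in the SP in all 3 pairs (by 0.59, 0.37 and 0.66 on the log2 scale; adjusted p with the replicate block = 0.884). One sign in all 3 pairs was seen for 11 of 30 members (36.7%) and for 35.4% of all genes. After quantile normalization, the 8 members higher in the SP of each pair were Axin1, Dkk3, Fzd5, Fzd6, Fzd7, Fzd8, Lef1 and Wnt3a. The 3 lower were Apc, Wnt7a and Znrf3. All Dkk3 signals in neurospheres were below the array median. As deposited, those of array 2 went the other way, at 17.3 in the SP and 21.1 in the non-SP. The test of whether the SP difference itself differed between origins gave 0 members and 0 genes of 11893, with unadjusted limma p under 0.05 for 4 of 30 members (13.3%, against 2.24%). The smallest p there were those of Wnt3a (-1.99 ± 0.59), Wnt5a (1.20 ± 0.50) and Wnt5b (-1.40 ± 0.60), each with an adjusted p of 0.999.

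**Figure D4:**
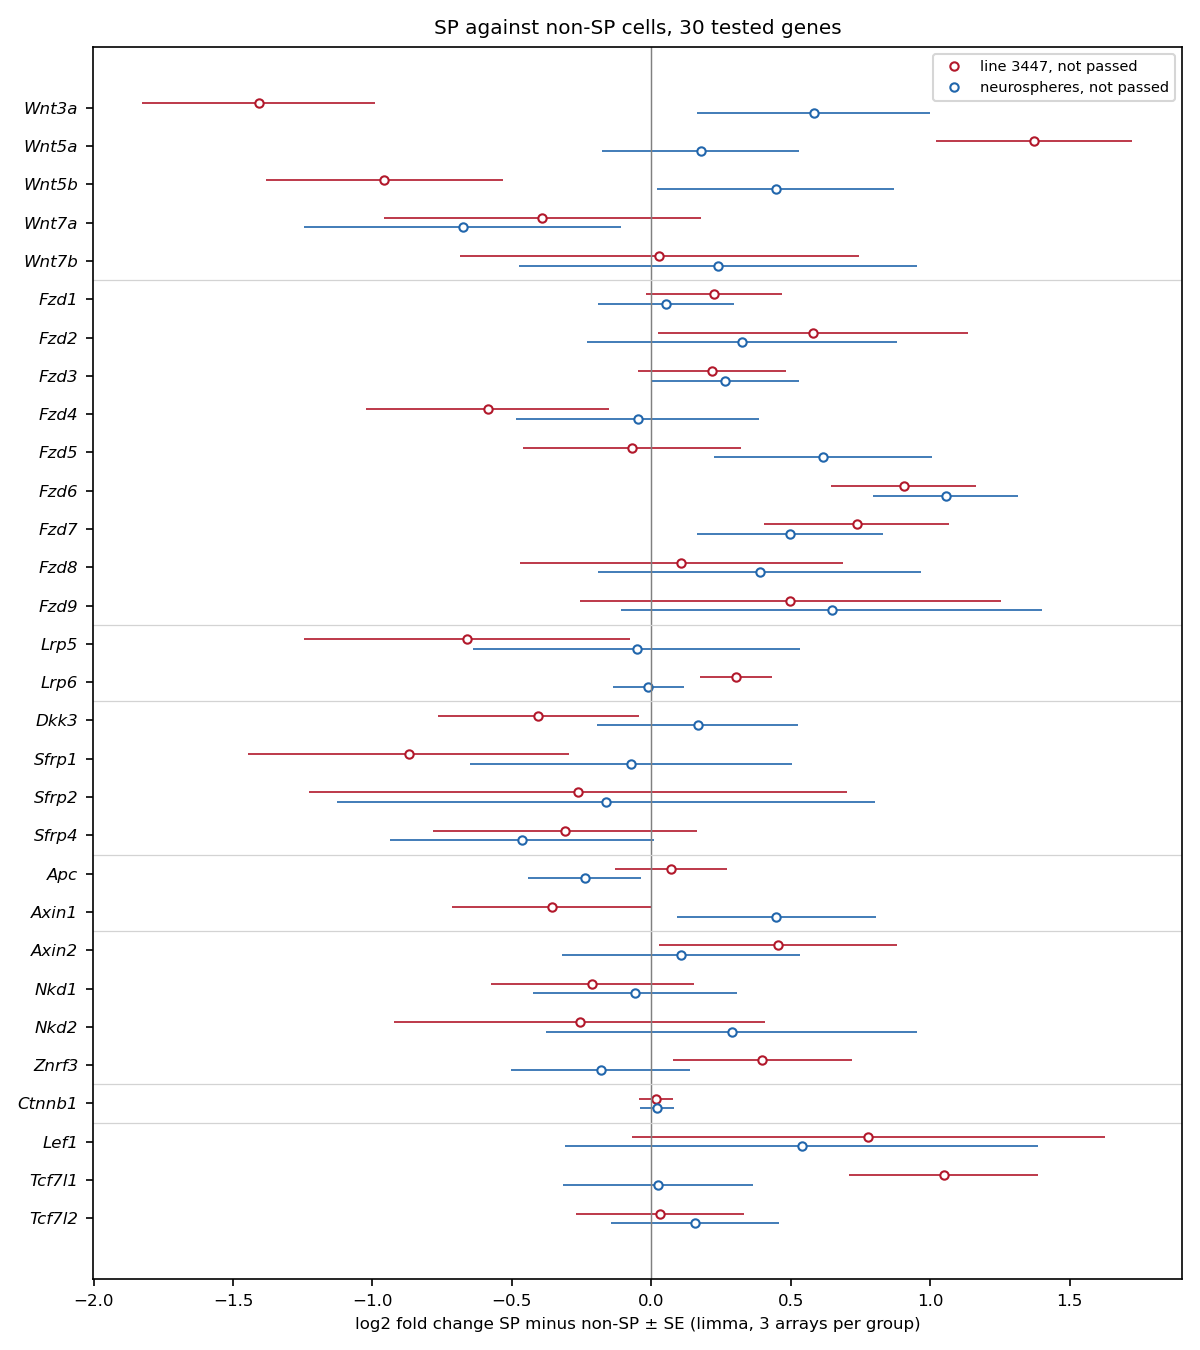
Log2 difference SP minus non-SP ± SE (x axis, limma, 3 arrays per group) for the 30 tested members (y axis, grouped by role) in line 3447 and in neurospheres. No point passed the adjusted threshold of 0.05; Fzd6 lies to the right in both origins, at 0.91 and 1.06, and Wnt3a lies on opposite sides of 0.

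Between the SP cells of the lines 3447 and 4346, 0 of 30 members passed where 1.66% of all genes did, and 5 of 30 had an unadjusted limma p under 0.05 (16.7%, against 16.6%). The smallest p were those of Fzd8 (-1.41 ± 0.58, adjusted p = 0.243), Fzd1 (0.58 ± 0.24, adjusted p = 0.252) and Axin2 (1.01 ± 0.43, adjusted p = 0.252). Fzd8 gave 24.6, 1.27 and 62.2 in line 3447 and 12.9, 47.4 and 204 in line 4346, with the highest value on array 3 of the 4346 SP. Without that array the Axin2 difference was 0.34 (adjusted p = 0.718) and the Fzd8 difference -0.70 (adjusted p = 0.676). Dkk3 (-0.15 ± 0.36), Fzd6 (-0.02 ± 0.26), Lrp6 (0.00 ± 0.13) and Lef1 (0.08 ± 0.85) were among the members whose arrays overlapped between the lines.

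Beyond the rule, 78 further genes of the pathway were listed; 75 were on the array, and 63 met the filter and were tested. In the 3447 SP 23 of 63 passed (11 higher, 12 lower), 36.5%; in the 4346 SP 22 (10 higher, 12 lower), 34.9%; and in the 3447 non-SP 18 (9 higher, 9 lower), 28.6%. Of all genes 19.6%, 24.3% and 19.4% passed in these comparisons. The median changes of the list were -0.09, -0.05 and -0.01, close to those of all genes (-0.03, 0.02 and 0.04). Without array 1 of the 3447 SP or array 1 of the neurosphere SP the first count was 15, and without array 3 of the 3447 non-SP the last was 11. Median centring of the arrays moved the median change of all genes in the 3447 SP from -0.03 to -0.18, and the first count was then 13.

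Of the 6 tested extracellular and membrane inhibitors on the list, Frzb and Wif1 were higher in tumour cells in all 3 comparisons. Cer1 was higher in the 3447 non-SP and Draxin was lower in all 3 comparisons. Frzb, a relative of the Sfrp genes, gave 33.9, 77.9 and 30.6 in the neurosphere SP and 36.6, 108 and 72.5 in the neurosphere non-SP. It gave 742, 498 and 631 in the 3447 SP, 1203, 1133 and 999.8 in the 4346 SP and 288, 398 and 173 in the 3447 non-SP. Frzb was higher on every tumour array, with changes of 3.40 ± 0.36 (adjusted p = 5.52e-06), 4.25 ± 0.36 (adjusted p = 4.89e-07) and 1.81 ± 0.36 (adjusted p = 0.00184). Wif1, which binds Wnt ligands, gave 18.6, 2.68 and 40.9 and 0.831, 20.2 and 10.2 in the neurosphere SP and non-SP. It gave 607, 183 and 513 in the 3447 SP, 156, 119 and 124 in the 4346 SP and 413, 489 and 240.4 in the 3447 non-SP. The tumour arrays again lay above the neurosphere arrays, by 3.62 ± 0.46 (adjusted p = 3.62e-05), 2.27 ± 0.46 (adjusted p = 0.00187) and 3.96 ± 0.46 (adjusted p = 1.27e-05). Cer1, a secreted antagonist of several ligand families, gave 36.9, 78.9 and 71.9 in the 3447 non-SP and 13.4, 21.9 and 7.56 in the neurosphere non-SP (1.501 ± 0.48, adjusted p = 0.0392). These groups did not overlap, but the signals were low, and the call was lost without any 1 of the 6 arrays compared or array 2 of the 4346 SP (adjusted p up to 0.122). Draxin, an axon guidance protein that also binds Lrp6, fell by 2.54 in the 4346 SP (adjusted p = 0.000806). In the 3447 SP and non-SP it changed by -1.53 and -1.67 (adjusted p = 0.027 and 0.0172). The 3447 SP call of Draxin was lost without array 1 or 2 of the 3447 SP or array 2 or 3 of the neurosphere SP (adjusted p up to 0.0848), and the non-SP call without array 1 or 3 of the 3447 non-SP or array 3 of the neurosphere non-SP (adjusted p up to 0.0849).

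Wls, the carrier that takes Wnt proteins to the cell surface, was lower in line 3447. It gave 1338, 1964 and 1239 in the neurosphere SP, 739, 619.8 and 714 in the 3447 SP and 1759, 1227 and 827 in the 4346 SP. In the non-SP it gave 1209, 1386 and 1614 in neurospheres and 332, 307 and 336 in line 3447. Line 3447 lay below the neurospheres in both gates (-1.12 ± 0.26, adjusted p = 0.00662, and -2.05 ± 0.26, adjusted p = 4.13e-05), while line 4346 overlapped them (-0.29 ± 0.26, adjusted p = 0.457). Lgr4, a receptor for R-spondins, was higher in the 3447 non-SP (1.35 ± 0.33, adjusted p = 0.00783) and in the 3447 SP (1.16 ± 0.33, adjusted p = 0.0201), where the call was lost without array 1 or 2 of the 3447 SP or array 1 of the neurosphere SP (adjusted p up to 0.107). Of 10 tested common target genes, 2 passed in each 3447 comparison, Sox9 and Tnfrsf19, both lower; that share of 20% was close to the 19.6% and 19.4% of all genes. In the 4346 SP, Jun was lower too and Ephb3 was higher, so that 40% passed against 24.3% of all genes. Sox9, a factor of neural stem cells and glia, was lower, with changes of -1.24, -1.74 and -1.82 (adjusted p = 0.00333, 0.000192 and 0.000132). Tnfrsf19, a tumour necrosis factor receptor superfamily member, was lower, with changes of -1.90, -1.72 and -1.59 (adjusted p = 0.00249, 0.00435 and 0.00821). Tle4, a corepressor that TCF factors bind, was lower, with changes of -0.97, -1.38 and -1.04 (adjusted p = 0.0129, 0.000904 and 0.00855). Ephb3 rose by 1.14 in the 4346 SP (adjusted p = 0.0302), a call lost without array 3 of the 4346 SP or array 1 or 2 of the neurosphere SP (adjusted p up to 0.118), and Jun fell by 0.51 (adjusted p = 0.00517). Under median centring of the arrays, the calls of Lgr4 in the 3447 SP, of Tle4 in the 3447 non-SP and of Jun were lost (adjusted p = 0.103, 0.113 and 0.508).

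The planar polarity branch moved in both directions. Of its 11 tested genes, 3 were higher and 3 lower in the 3447 SP, 3 higher and 5 lower in the 4346 SP, and 4 higher and 2 lower in the 3447 non-SP. In these comparisons 54.5%, 72.7% and 54.5% of the 11 passed, against 19.6%, 24.3% and 19.4% of all genes. Prickle1, a cytoplasmic polarity protein, gave 514, 514 and 554 and 409, 242 and 534 in the neurosphere SP and non-SP. It gave 2999, 2807 and 3981 in the 3447 SP, 4099, 3891 and 2918 in the 4346 SP and 2848, 2272 and 2953 in the 3447 non-SP. The increase was 2.55 ± 0.27, 2.67 ± 0.27 and 2.82 ± 0.27 (adjusted p = 6.26e-06, 3.94e-06 and 2.02e-06). Averaging its probe sets gave an increase of 0.92, 1.21 and 1.62, and each call was kept. Prickle2, of the same family, rose by 2.06, 2.16 and 2.69 (adjusted p = 0.000375, 0.000229 and 2.84e-05). Daam2, a formin that binds Dishevelled, rose by 3.57 ± 0.43, 3.96 ± 0.43 and 3.75 ± 0.43 (adjusted p = 2.12e-05, 6.62e-06 and 1.12e-05). Daam1, of the same family, went the other way, with signals of 1396 to 3306 on the tumour arrays against 4417 to 5877 on the neurosphere arrays. Celsr3, an atypical cadherin of axon guidance, was lower, with changes of -2.18, -2.96 and -3.88 (adjusted p = 0.00421, 0.000332 and 2.70e-05). Ror2, a receptor for Wnt5a, was higher in the 4346 SP (1.26 ± 0.36, adjusted p = 0.0168), a call lost without array 3 of the 4346 SP or array 1 or 2 of the neurosphere SP (adjusted p up to 0.0745). Ryk, another, was lower in the 3447 non-SP (-0.64 ± 0.20, adjusted p = 0.0374), a call lost without array 2 or 3 of the 3447 non-SP or array 1 or 3 of the neurosphere non-SP (adjusted p up to 0.155).

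**Figure D5:**
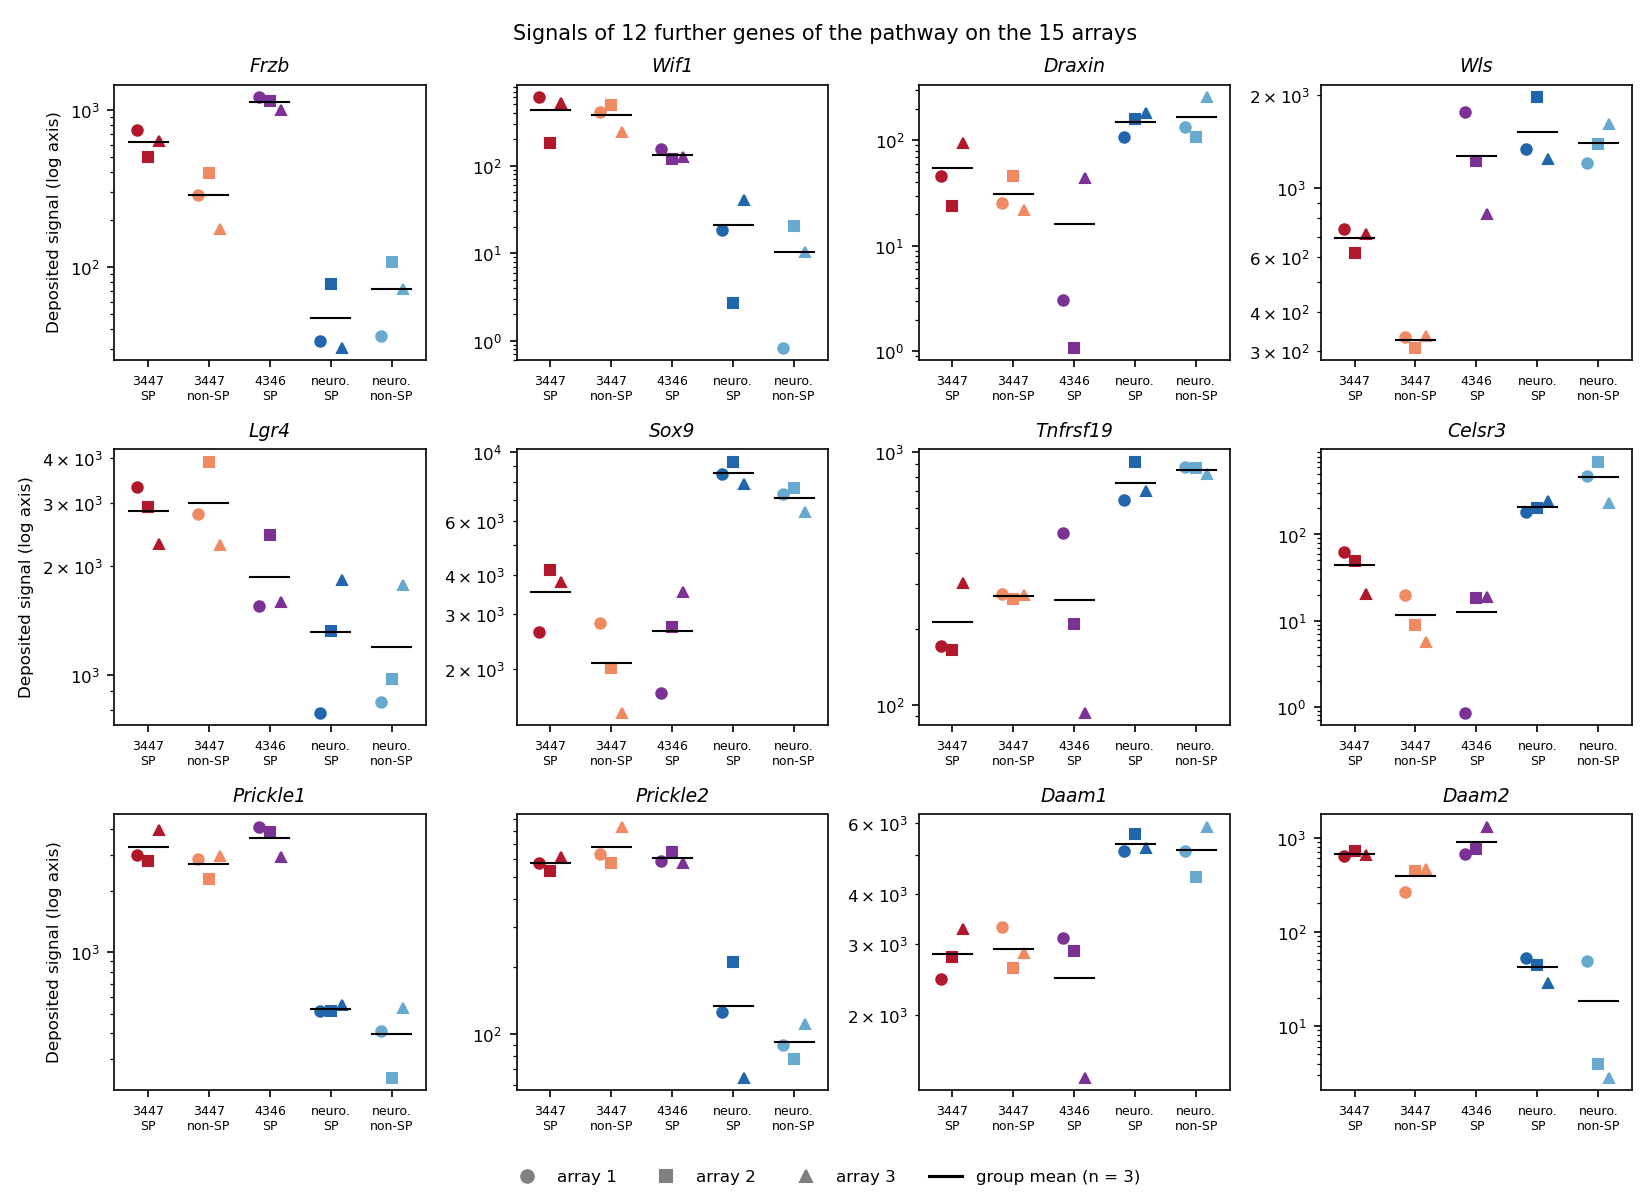
Deposited signals (y axis, log scale) of 12 further pathway genes on each of the 15 arrays, by group (x axis), with a line at each group mean (n = 3); marker shapes give array 1, 2 and 3. Frzb, Wif1, Prickle1, Prickle2 and Daam2 are higher and Sox9 and Celsr3 are lower on every tumour array than on every neurosphere array, and Wls is low in line 3447 while line 4346 overlaps the neurospheres.

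Marker sums of other cell types also differed between tumour and neurosphere arrays. The summed signal of 5 oligodendrocyte markers was 12894 to 17310.1 in the 3447 SP, 16091 to 19732 in the 3447 non-SP and 13893 to 19341 in the 4346 SP, against 3307 to 6818 and 3120.2 to 4266 in the neurosphere SP and non-SP; it came from Mbp and Cnp, while Mog, Mag and Mobp exceeded the array median on no array. The 6 astrocyte markers summed to 3230.4 to 5288 in the 3447 SP, 2065 to 3571 in the 3447 non-SP and 6981 to 10108.5 in the 4346 SP, against 12572 to 29726 and 14750.1 to 16899 in the neurosphere SP and non-SP. These sums came mainly from Slc1a3 and, in line 4346 and the neurospheres, also from Gja1. Gfap and Slc1a2 overlapped in each of the 3 comparisons, Gfap at 0.995 to 307 on the tumour arrays against 5.21 to 139. The 5 fibroblast and meningeal markers summed to 1064 to 3433 in the 3447 SP, 329 to 1819 in the 3447 non-SP and 8071 to 8582 in the 4346 SP, against 149 to 237 and 47.7 to 235 in the neurosphere SP and non-SP. That sum came mainly from Col1a1, and Col1a2 exceeded the array median on no array. The oligodendrocyte progenitor sums were 10405 to 14716 in the 3447 SP, 16296 to 18464 in the 3447 non-SP and 17010.2 to 22639.6 in the 4346 SP, against 6978 to 12165 and 8841 to 11529 in the neurosphere SP and non-SP. Within that list Sox10 gave 2602 to 8730.1 on the tumour arrays and 0.819 to 20.7 on the neurosphere arrays, and Cspg4 924 to 4652 against 86.6 to 191. Pdgfra and Gpr17 were also higher on every tumour array than on every neurosphere array. Olig2 went the other way, at 1084 to 3587 on the tumour arrays against 3613 to 5384. Olig1 overlapped, at 1062 to 3446 on the tumour arrays against 2963 to 5321. The 6 endothelial markers summed to 142 to 221 in the 3447 SP, 62.1 to 128 in the 3447 non-SP and 69.5 to 102 in the 4346 SP, against 452 to 2089 and 337 to 433 in the neurosphere SP and non-SP. Flt1 was the endothelial marker above the median on every neurosphere array, and Pecam1 and Cdh5 exceeded it on no array. The neuronal sums lay apart between the 3447 SP (803 to 1253) and the neurosphere SP (248 to 669) and overlapped in the other comparisons. In those 2 groups Tubb3 gave 524 to 606 against 16.3 to 120. Snap25 went the other way, at 27.5 to 39.2 against 64.7 to 289, and the other neuronal markers overlapped. The immune, mural, ependymal and choroid plexus sums overlapped between tumour and neurosphere arrays in each of the 3 comparisons. The part of these marker differences in the Wnt results was not tested.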

How the data were processed

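Signal intensities were deposited on a linear scale; the authors computed them with the MAS5 method in Affymetrix Expression Console, per the submitters' processing notes, with no version given in the sources used here. The deposited mean without the top and bottom 2% of probe sets was 500 on each array. Gene symbols came from the platform annotation: 34945 probe sets had 1 symbol, 932 several and 9160 none, and 64 control probe sets were left out. Medians differed by more than 1.5 times, so arrays were quantile normalized before log2 of signal plus 16. Each gene was represented by the probe set with the highest mean and kept if it exceeded the array median on at least 3 arrays. limma 3.58.1 (R 4.3.3) fitted 5 group means to 15 arrays (10 residual degrees of freedom) with a trend of spread on level, for 7 comparisons, two-sided, and was tested on simulated data. Replicate numbers pair the neurosphere arrays: deviations of same-numbered SP and non-SP arrays correlated at 0.578, 0.523 and 0.622 across genes. In line 3447 they correlated at -0.224, -0.248 and -0.120, so only the neurosphere numbers were used as a block beside results. SP arrays 1, 2 and 3 of line 3447 correlated with its non-SP arrays 2, 3 and 1 at 0.365, 0.297 and 0.219. The other pairs were negative, and a pairing under other numbers was not tested. The number of arrays limits the precision.

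Members passing were named or counted, with every array for the largest changes and for Axin2, Lef1, Tcf7l1, Tcf7l2 and Ctnnb1, and up to 3 pathway genes per sub-list were chosen by smallest p; Ephb3, Cer1 and the 3447 values of Prickle2 and Celsr3 outside that choice were added after their values were seen. The signals of Daam1 were also added after they were seen. The members and lists were chosen with earlier results of these data known. Alternatives changed the normalization, the constant, the filter, the probe set rule, the spread model, array weights, the block and the arrays fitted.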

Additional observations from a re-analysis of the deposited data

Results flagged for a closer look

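Wnt3a drew attention because its SP and non-SP arrays differed in opposite directions in the 2 origins: all 3 SP arrays lay below all 3 non-SP arrays in line 3447 and above them in neurospheres. The SP difference in line 3447 minus that in neurospheres was -1.99 ± 0.59 on the log2 scale, with an unadjusted p of 0.00397 and, by limma over all genes, an adjusted p of 0.999. It passed in neither origin (adjusted p = 0.391 in line 3447 and, with the replicate block, 0.959 in neurospheres). The signals were 3.95 to 60.7 on the 15 arrays. They exceeded the array median on 3 of them, arrays 1 and 2 of the 3447 non-SP and array 3 of the 4346 SP. Every neurosphere and 3447 SP signal of Wnt3a was thus below the median of its array. The difference between origins was -3.54 with an added constant of 1 and -0.91 with 64.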

How the results depend on the processing

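The counts of members past the threshold against neurospheres stayed within 1.5 times of 13, 15 and 13 under the 13 other settings tried, and leaving out each array in turn gave 8 to 15 for the 3447 SP, 10 to 15 for the 4346 SP and 8 to 14 for the 3447 non-SP. The other 4 comparisons stayed at 0 in every fit that left out an array, and array weights gave 1 member (Wnt5a) between the 3447 SP and non-SP. For the longer pathway list the counts with an array left out were 15 to 24, 17 to 22 and 11 to 22 against neurospheres, 0 to 1 between the lines, where 1 passed without array 3 of the 4346 SP, and 0 in the rest. That list moved to 13 in the 3447 SP with arrays centred on their medians, to 14 in the 4346 SP with the compared groups fitted alone, to 1 between the 3447 SP and non-SP with array weights, and to 1 between the lines with the mean of probe sets and 1 with array weights.

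Of 41 member calls, 23 were kept in all 15 fits that left out an array and under every other setting that could give a value: those of Dkk3, Wnt5a, Wnt7a, Apc and Fzd6 in all 3 comparisons, Tcf7l1 in both SP comparisons, Fzd5 in the 3447 SP, Fzd1, Fzd3, Axin2 and Lrp6 in the 4346 SP and Sfrp1 in the 3447 non-SP. The calls of Nkd1 held in 8 of 13 other settings in the 3447 SP and in 7 of 13 in the 4346 SP, and that of Fzd3 in the 3447 SP held in 8 of 13. Of 63 calls on the pathway list, 33 were kept in the same way. One direction reversed, that of Tnik in the 3447 SP, at -0.21 with the mean of probe sets (adjusted p = 0.655); the cause was not tested. An added constant of 64 shrank low genes by over 1.5 times with the call kept: Nkd1 to -0.67 in the 3447 SP and -0.65 in the 4346 SP, Nkd2 to 1.36 in the 4346 SP and 1.44 in the 3447 non-SP, Wnt7b to -1.45 and Celsr3 to -1.82 in the 4346 SP, Wif1 to 1.32 in the 4346 SP and 2.56 in the 3447 non-SP, Draxin to -1.44 and -1.11 there, and Cer1 to 0.76 and Daam2 to 2.46 in the 3447 non-SP. A constant of 1 widened Nkd2 to 3.89 in the 3447 non-SP, Wnt7b to -3.89 and Draxin to -3.97 in the 4346 SP and Cer1 to 2.27, where its call was lost. Array weights moved Tnfrsf19 in the 4346 SP to -1.13 with the call kept. Between the 3447 and 4346 SP, array weights gave 0.32 for Axin2 and -0.71 for Fzd8, and median centring gave 0.19 for Fzd1; between the 3447 SP and non-SP it gave 0.58 for Fzd6.

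With the replicate block within neurospheres, 0 members passed between neurosphere SP and non-SP, Fzd6 had an adjusted p of 0.225, and 0.0589% of all genes passed. That block raised the member counts to 16, 16 and 15 against neurospheres. With the block in line 3447 too, Axin2 in the 3447 non-SP was lost (adjusted p = 0.0577). With the block over all 5 groups, Fzd3 in the 3447 SP was lost (adjusted p = 0.0676). Centring arrays on their medians moved the median change of all genes to -0.18, 0.19 and 0.18 against neurospheres, to -0.30 between the 3447 SP and non-SP and to -0.38 between the lines. The platform gives no detection limit here, so signals under the array median have no lower bound of their own.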
